A study of Mus musculus with 6 samples.

Results

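The genes described here were the matrix metalloproteinases Mmp2, Mmp3, Mmp9, Mmp10, Mmp13 and Mmp14 and their tissue inhibitors Timp1, Timp2 and Timp3. They were taken by gene name from the gene table of the series and made up 9 of its 21686 genes. The series holds RNA sequencing of MC3T3-E1 Subclone 14, a single subclone of a mouse osteoblast precursor line, so nothing here extends to other lines. Cells were kept for 72 h with 100 µL PBS (control), with 10 µM dexamethasone, or with 10 µM dexamethasone and 100 µg of EPC-EVs, the extracellular vesicles shed by endothelial progenitor cells of mouse bone marrow. Each group held n = 2 libraries. The dose of EPC-EVs is that of the sample labels, and the paper gives a lower dose in some places. The labels were also followed where the design text of the series gives fibroblasts and 48 h. Matrix metalloproteinases are zinc enzymes, made as inactive precursors, that cut collagens and other matrix proteins. Mmp2 and Mmp9 are gelatinases, Mmp3 and Mmp10 stromelysins, Mmp13 the main collagenase of mouse bone, and Mmp14 a membrane-bound enzyme that activates the Mmp2 precursor with the help of Timp2. Timp1, Timp2 and Timp3 bind the active enzymes one to one and block them.

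The libraries of cells given EPC-EVs stood apart from the other 4 before any gene was compared. They held 12864009 and 13182014 gene counts, against 5146760 to 6583735 in the control and dexamethasone libraries. Mitochondrially encoded genes took 0.465% and 0.727% of their counts, against 5.55% to 8.62% elsewhere. Library batch and treatment cannot be told apart here. Values are given in CPM (counts scaled to a common library total, adjusted by TMM factors over the 6 libraries). FPKM (fragments scaled to both transcript length and sequencing depth, taken from the deposited table) was used wherever one gene was set beside another. A gene is called where its adjusted p was under 0.05 in edgeR's quasi-likelihood test with the Benjamini-Hochberg adjustment. Groups are given as mean ± SD of 2 libraries, and fold changes as log2 ± SE. The p-values measure only the spread between these libraries. Fewer cells of a kind and less RNA per cell cannot be told apart in bulk RNA. A level of 3 counts corresponded to 0.597 CPM in the shallowest library and 0.235 CPM in the deepest, limits that cover counting error only.

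In control cells the inhibitors Timp2 and Timp1 were the most abundant of the 9 transcripts, with mean FPKM of 272 and 253 and ranges that overlapped. Timp3 at 142 and Mmp2 at 138 came next and were not separated from each other. Mmp13 and Mmp14 followed at 54.1 and 46.5, again with overlapping ranges. Mmp9 was far below at 8.83, Mmp3 at 3.07 and Mmp10 at 0.878. After dexamethasone alone the order was Timp2 at 309 and Timp1 at 302, then Mmp2 at 190, Timp3 at 115, Mmp14 at 59.4 and Mmp13 at 29.7. With EPC-EVs added, Mmp2 at 380 and Timp2 at 376 shared the first place. Mmp14 at 167 then stood above Timp1 at 102 and Timp3 at 96.8, and Mmp13 had dropped to 10.1 and 3.69 in its libraries. Mmp2 and Timp3, and likewise Mmp14 and Mmp13, overlapped in control and were apart after dexamethasone. With EPC-EVs Mmp2 stood above Timp1, and Mmp14 above both Timp1 and Timp3.

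**Figure D1:**
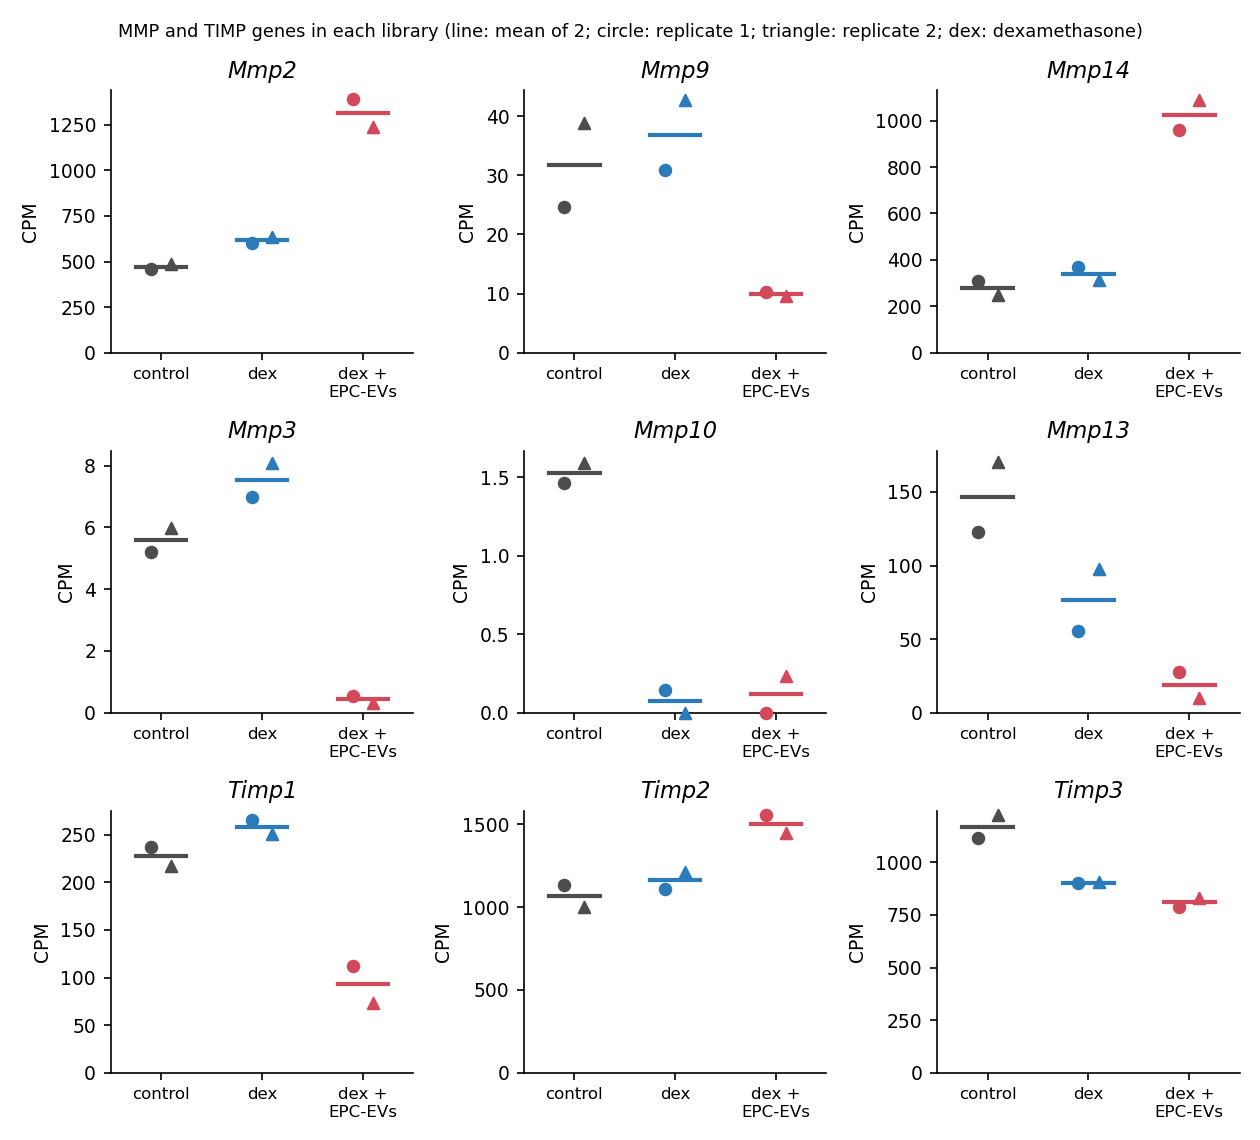
CPM of each of the 9 genes in the 6 libraries, 1 point per library. Mmp14 ran from 251 to 369 CPM without EPC-EVs and was 958 and 1088 CPM with them, while Mmp9 ran from 24.6 to 42.7 CPM and was 10.2 and 9.58 CPM.

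Between dexamethasone alone and control no metalloproteinase or inhibitor was called. Mmp10, too scarce to be tested, went from 9 and 8 counts to 1 and 0. Of the genes tested Mmp13 had the largest difference and was lower, and Mmp2 was slightly higher and Timp3 slightly lower. By edgeR 0 of the 8 genes tested were called, beside 3 with an unadjusted p under 0.05. DESeq2 called 1 of them and limma on log2(FPKM + 1) called 0. Over all 12879 genes tested, 2 were higher (0.0155%) and 5 lower (0.0388%), and 1409 had an unadjusted p under 0.05. The median log2 fold change was 0.19 over the members and 0.0071 over all genes. The counts of this comparison depended strongly on single libraries. Without control replicate 1 edgeR called 2200 genes and 4 members, without control replicate 2 113 genes, and without dexamethasone replicate 2 17 genes and 1 member. With DESeq2 129 genes were called in place of 7.

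Most of the 9 genes differed between dexamethasone alone and dexamethasone with EPC-EVs, and in both directions. Mmp2 and Mmp14, the gelatinase and its activator, rose. Timp2 was called slightly higher, a call lost under several alternatives. The stromelysin Mmp3, the gelatinase Mmp9, the collagenase Mmp13 and the inhibitor Timp1 fell. Timp3 was not called and Mmp10 was too scarce to be tested. By edgeR 3 of 8 members were higher and 4 lower, against 2832 (20.9%) and 2565 (18.9%) of all 13556 genes tested. The median log2 fold change was -0.86 over the members and 0.012 over all genes. Without dexamethasone replicate 2 the genes called numbered 3250 in place of 5397, and the members 5 in place of 7. Thinning every library to the smallest gave 5240 genes and 7 members, and leaving out mitochondrially encoded genes gave 5407 genes and 7 members. Taking out the trend of fold changes over GC content and length gave 4291 genes and 5 members. All 6 libraries in one fit gave 4149 genes and 6 members.

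Against control, cells given dexamethasone and EPC-EVs differed in much the same genes. Mmp2 and Mmp14 were higher, and Mmp3, Mmp9, Mmp13, Timp1 and Timp3 were lower. Timp2 and Mmp10 were not called. This comparison shares the EPC-EVs libraries with the preceding one and the control libraries with the first, so its values are set beside theirs and do not count as a separate result. By edgeR 2 of 9 members were higher and 5 lower, against 2587 (19.1%) and 2329 (17.2%) of all 13511 genes tested. The median log2 fold change was -1.34 over the members and 0.021 over all genes. The genes and members called fell without either EPC-EVs library or control replicate 2, and rose without control replicate 1. Members called numbered 8 in place of 7 with DESeq2 and with limma on log2(FPKM + 1). They numbered 6 with the trend of fold changes over GC content and length taken out.

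**Figure D2:**
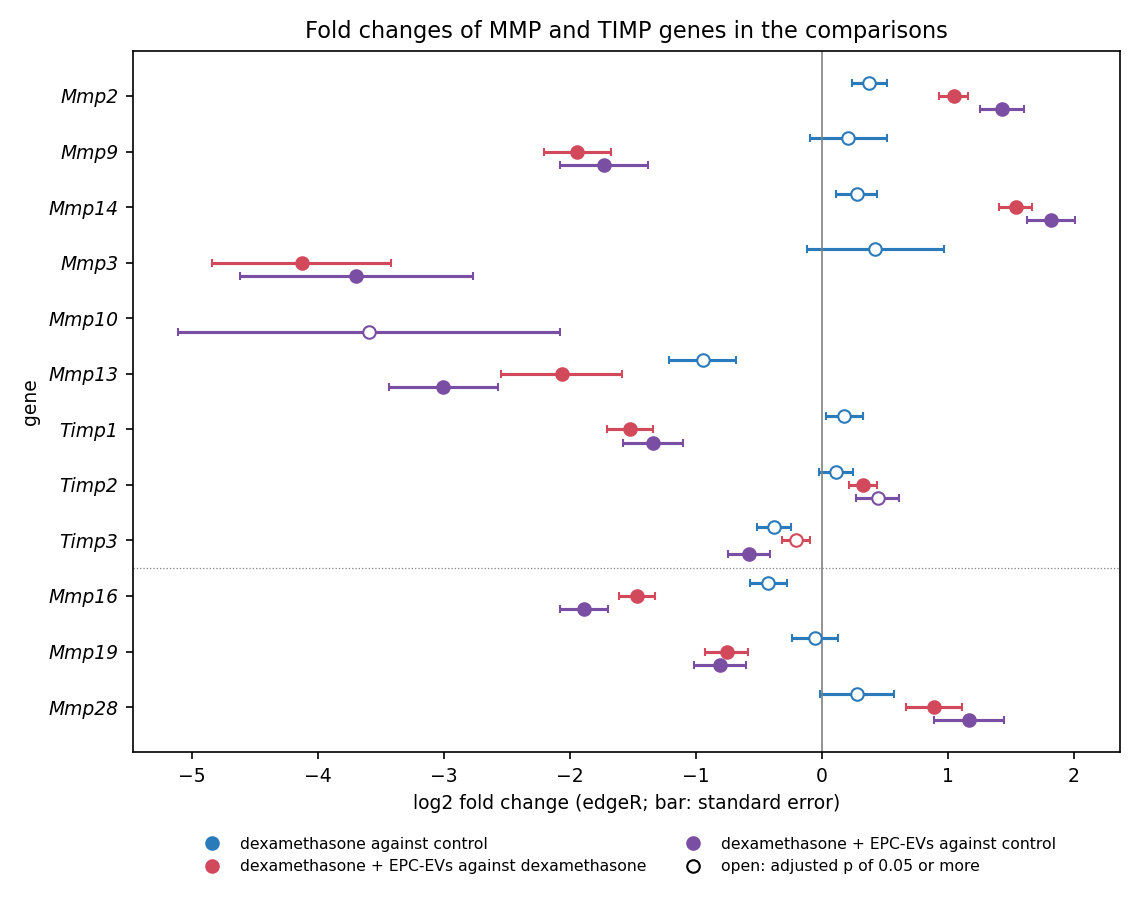
Log2 fold change with its SE in the 3 comparisons, for the 9 genes and, below them, the further metalloproteinase genes Mmp16, Mmp19 and Mmp28. Mmp10 is shown only between EPC-EVs and control, as it was not tested elsewhere. Against dexamethasone the values ran from -4.13 for Mmp3 to 1.54 for Mmp14, and between dexamethasone and control from -0.94 for Mmp13 to 0.42 for Mmp3.

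Mmp2 (ENSMUSG00000031740.8, chr8:92827291-92853420 of GRCm38), the more abundant gelatinase, was higher in each successive group. It measured 457 and 487 CPM in control, 601 and 632 CPM with dexamethasone, and 1390.2 and 1237 CPM with EPC-EVs added. The group means were 472 ± 21.3, 616 ± 21.9 and 1313 ± 109 CPM. The groups did not overlap, and the distance between the EPC-EVs libraries and the others was several times the spread inside any group. Dexamethasone alone gave a log2 fold change of 0.38 ± 0.14 over control, with an unadjusted p of 0.0201 and an edgeR adjusted p of 0.387. Without control replicate 1 this difference was called, at 0.34 with an edgeR adjusted p of 0.0421. It nearly vanished, at 0.039, when the trend of fold changes over GC content and length was taken out. Against dexamethasone, Mmp2 rose 2.06-fold with EPC-EVs (log2 1.05 ± 0.12, edgeR adjusted p = 4.10e-05). Against control it was 2.69-fold higher (log2 1.43 ± 0.17, edgeR adjusted p = 0.000763). Taking out the same trend gave 0.56 against dexamethasone (edgeR adjusted p = 0.00274) and 0.56 against control (edgeR adjusted p = 0.0471), both called.

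Mmp9 (ENSMUSG00000017737.2, chr2:164940780-164955850), the other gelatinase, moved the opposite way once EPC-EVs were present. Its level was 24.6 and 38.8 CPM in control, 30.9 and 42.7 CPM with dexamethasone, and 10.2 and 9.58 CPM with EPC-EVs. The control and dexamethasone ranges overlapped, replicate 2 being the higher in both groups, and the EPC-EVs libraries lay below all 4. Dexamethasone alone gave 0.21 ± 0.31 over control (edgeR adjusted p = 0.846). The sign of that difference hung on single libraries, being -0.076 without control replicate 1 and -0.038 without dexamethasone replicate 2. It was -0.15 with the GC and length trend taken out. Against dexamethasone, Mmp9 fell 3.83-fold with EPC-EVs (log2 -1.94 ± 0.27, edgeR adjusted p = 0.000192). Against control it was 3.31-fold lower (log2 -1.73 ± 0.35, edgeR adjusted p = 0.00614). Its value against control was -2.61 with the GC and length trend taken out. The 2 gelatinases thus separated, Mmp9 going from a mean FPKM of 10.8 to 2.72 while Mmp2 went from 190 to 380.

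Mmp14 (ENSMUSG00000000957.11, chr14:54431612-54445364), the membrane-type enzyme, had the largest increase of the 9 genes. It measured 309 and 251 CPM in control, 369 and 312 CPM with dexamethasone, and 958 and 1088 CPM with EPC-EVs. The lowest dexamethasone library was just above the highest control library, whereas the EPC-EVs libraries were far above both groups. Dexamethasone alone gave 0.28 ± 0.16 over control (edgeR adjusted p = 0.553). Without control replicate 1 this difference was called, at 0.44 with an edgeR adjusted p of 0.0177, and it was 0.0031 with the GC and length trend taken out. Against dexamethasone, Mmp14 rose 2.91-fold with EPC-EVs (log2 1.54 ± 0.13, edgeR adjusted p = 7.03e-06). Against control it was 3.53-fold higher (log2 1.82 ± 0.19, edgeR adjusted p = 0.000436). With the GC and length trend taken out the value against control was 1.11, called with an edgeR adjusted p of 0.0010.

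Mmp3 (ENSMUSG00000043613.8, chr9:7445822-7455975) was a low transcript that nearly vanished with EPC-EVs. It had 32 and 30 counts in control, 48 and 55 with dexamethasone, and 7 and 4 in the far deeper EPC-EVs libraries. In CPM these were 5.21 and 5.97, then 6.99 and 8.10, then 0.554 and 0.314. No library of cells given EPC-EVs came near the lowest of the other 4. Dexamethasone alone gave 0.42 ± 0.54 over control (edgeR adjusted p = 0.819). Against dexamethasone, Mmp3 fell 17.5-fold with EPC-EVs (log2 -4.13 ± 0.71, edgeR adjusted p = 0.000827). Against control it was 12.9-fold lower (log2 -3.69 ± 0.92, edgeR adjusted p = 0.0149). The call against control was lost without EPC-EVs replicate 1 (log2 -4.12, edgeR adjusted p = 0.0735) and without EPC-EVs replicate 2 (log2 -3.33, edgeR adjusted p = 0.132). By limma on log2(FPKM + 1), where the added constant shrinks low values, the difference was -2.11 against dexamethasone and -1.72 against control, and it was called in both.

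Mmp10 (ENSMUSG00000047562.3, chr9:7502352-7510240), a neighbour and close relative of Mmp3, was near the limit of counting in every library. It had 9 and 8 counts in control, 1 and 0 with dexamethasone, and 0 and 3 with EPC-EVs. Its control level was 1.53 ± 0.0894 CPM. The ratio of dexamethasone to control was 0.0481 with a 95% counting interval of 0.00115 to 0.307. With no filter edgeR did not call this difference (log2 -4.06, adjusted p = 0.743). The ratio of dexamethasone with EPC-EVs to control was 0.0777 with a counting interval of 0.0146 to 0.269. Both control libraries were above all 4 others, which overlapped. The comparison with control by edgeR gave a log2 fold change of -3.60 ± 1.52, not called (unadjusted p = 0.0434, adjusted p = 0.0962). By limma on log2(FPKM + 1) the same difference was called at -0.82 with an adjusted p of 0.0271. Mmp10 passed the filter only through its control counts, so neither test adds support to the counts themselves. The Mmp3 and Mmp10 transcripts are 79.0% identical over 1681 aligned bases, and 8.39% of the 50-base runs of Mmp3 and 8.37% of those of Mmp10 occur in other genes. The longest run the pair shares is 104 bases.

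Mmp13 (ENSMUSG00000050578.10, chr9:7272514-7283331), the collagenase, was lower in each successive group. It measured 123 and 170.2 CPM in control, 55.5 and 97.5 CPM with dexamethasone, and 27.6 and 10.2 CPM with EPC-EVs. The group means were 146 ± 33.6, 76.5 ± 29.7 and 18.9 ± 12.3 CPM. The 3 groups did not overlap, yet Mmp13 had wide spread inside each of them. With dexamethasone alone it was 1.92-fold lower (log2 -0.94 ± 0.27), not called by edgeR with an unadjusted p of 0.00485 and an adjusted p of 0.291. DESeq2 called it at -0.95 with an adjusted p of 0.0423. With no filter edgeR called it too, at -0.94 with an adjusted p of 0.00145, so the edgeR result depended on the setting. The size of the difference hung on single libraries. It was -1.15 without control replicate 1 and -1.40 without dexamethasone replicate 2. Without control replicate 2 it was -0.67, and without dexamethasone replicate 1 it was -0.59.

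With EPC-EVs added Mmp13 fell further. Against dexamethasone it fell 4.18-fold (log2 -2.06 ± 0.48, edgeR adjusted p = 0.0141). That call was lost without dexamethasone replicate 2 (log2 -1.60, edgeR adjusted p = 0.0601) and with the GC and length trend taken out (log2 -1.49, edgeR adjusted p = 0.0685). Without EPC-EVs replicate 1 the value was -2.94. Against control Mmp13 was 8.02-fold lower (SE of the log2 0.43, edgeR adjusted p = 0.00143). Without EPC-EVs replicate 1 the log2 fold change was -3.88, and with the GC and length trend taken out it was -2.27, both called. Between the EPC-EVs libraries, replicate 2 was the lower for Mmp13, as it was for Timp1.

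Timp1 (ENSMUSG00000001131.11, chrX:20870166-20874735) was level in control and dexamethasone cells and dropped with EPC-EVs. It measured 237 and 217 CPM in control, 266 and 251 CPM with dexamethasone, and 113 and 73.2 CPM with EPC-EVs. The dexamethasone libraries were slightly above the control ones and the EPC-EVs libraries were well below both. Dexamethasone alone gave 0.18 ± 0.15 over control (edgeR adjusted p = 0.699), and -0.030 with the GC and length trend taken out. Against dexamethasone, Timp1 fell 2.87-fold with EPC-EVs (log2 -1.52 ± 0.19, edgeR adjusted p = 8.20e-05). Against control it was 2.53-fold lower (log2 -1.34 ± 0.24, edgeR adjusted p = 0.00332). Timp1 lies within Syn1 on the opposite strand, without overlap of exons.

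Timp2 (ENSMUSG00000017466.9, chr11:118301069-118355740), an abundant inhibitor, shifted little. It measured 1136 and 1002 CPM in control, 1111 and 1213 CPM with dexamethasone, and 1556 and 1449 CPM with EPC-EVs. Control and dexamethasone overlapped, and both EPC-EVs libraries were above them. Dexamethasone alone gave 0.11 ± 0.14 over control (edgeR adjusted p = 0.806), and -0.13 with the GC and length trend taken out. Against dexamethasone, Timp2 rose 1.25-fold with EPC-EVs (log2 0.33 ± 0.11, edgeR adjusted p = 0.0366). This call was easily lost. It went without dexamethasone replicate 1 (log2 0.28, edgeR adjusted p = 0.239) and without dexamethasone replicate 2 (log2 0.39, edgeR adjusted p = 0.130). It also went by limma on log2(FPKM + 1) (0.28, adjusted p = 0.0954), with upper quartile scaling (0.28, edgeR adjusted p = 0.0614) and with all 6 libraries in one edgeR fit (0.34, adjusted p = 0.0872). With the GC and length trend taken out the direction of Timp2 turned, to -0.041 against dexamethasone and -0.19 against control. Against control the difference was 0.44 ± 0.17, not called by edgeR (unadjusted p = 0.0310, adjusted p = 0.0746). DESeq2 called it at 0.45 (adjusted p = 0.0398), as did edgeR without control replicate 1 (0.58, adjusted p = 0.0313).

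Timp3 (ENSMUSG00000020044.13, chr10:86300372-86349506) was lower in each successive group. It measured 1113 and 1224 CPM in control, 900.4 and 905 CPM with dexamethasone, and 787 and 832 CPM with EPC-EVs. The 3 groups did not overlap, and the dexamethasone libraries were almost identical. Dexamethasone alone gave -0.38 ± 0.14 against control, not called by edgeR (unadjusted p = 0.0174, adjusted p = 0.372). Without control replicate 1 it was called at -0.44 (edgeR adjusted p = 0.00298). Against dexamethasone, EPC-EVs gave -0.20 ± 0.11, which edgeR did not call (adjusted p = 0.163). Against control Timp3 was 1.49-fold lower with EPC-EVs (log2 -0.58 ± 0.17, edgeR adjusted p = 0.0281). That call was lost without control replicate 2 (log2 -0.49, edgeR adjusted p = 0.0546), without EPC-EVs replicate 1 (log2 -0.53, edgeR adjusted p = 0.204) and without EPC-EVs replicate 2 (log2 -0.60, edgeR adjusted p = 0.134). It was also lost with the GC and length trend taken out (log2 -0.41, edgeR adjusted p = 0.0695). Timp3 lies opposite Syn3, with overlapping exons, so counts of the pair depend on a strand setting that the sources used here do not give for the counting step.

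The balance of enzyme to inhibitor transcripts was first compared by summed FPKM of the 17 metalloproteinase and 4 inhibitor genes in the table. The enzymes summed to 328 and 336 in control, 371 and 374 with dexamethasone, and 626 and 590.0 with EPC-EVs. The inhibitors summed to 697 and 637, then 725 and 729, then 611 and 538. The ratio of enzymes to inhibitors was 0.471 and 0.527 in control, 0.511 and 0.514 with dexamethasone, and 1.02 and 1.10 with EPC-EVs. Control and dexamethasone overlapped in this ratio, and both EPC-EVs libraries were far above them. Over the 6 enzymes and 3 inhibitors described here alone, the ratio was 0.351 and 0.407, then 0.394 and 0.415, then 0.942 and 0.999. These sums follow the most abundant genes and describe transcripts, not enzyme activity.

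**Figure D3:**
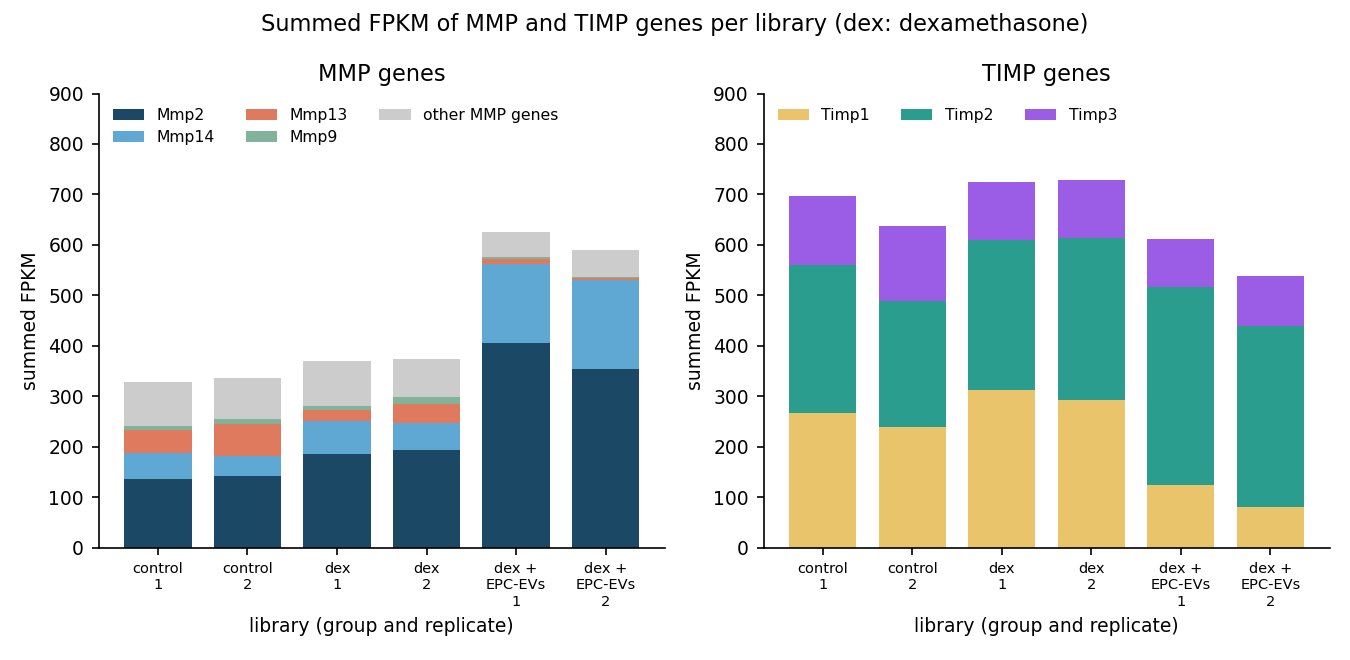
Summed FPKM of metalloproteinase and inhibitor genes in each library, split by gene. Mmp2 made up 41.4% and 42.0% of the enzyme sum in control and 64.7% and 60.1% with EPC-EVs.

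The make-up of both sums changed with EPC-EVs. Mmp2 took 41.4% and 42.0% of the enzyme FPKM in control, 50.2% and 51.7% with dexamethasone, and 64.7% and 60.1% with EPC-EVs. Mmp14 took 15.8% and 12.2%, then 17.4% and 14.5%, then 25.2% and 29.9%. Mmp13 took 14.0% and 18.5%, then 5.84% and 10.1%, then 1.62% and 0.625%. With EPC-EVs the enzyme transcripts were thus almost wholly Mmp2 and Mmp14, and Mmp13 had lost most of its share. Among the inhibitors Timp1 and Timp2 were near parity in control, with a Timp1 to Timp2 ratio of 0.916 and 0.950. With dexamethasone that ratio was 1.05 and 0.909. With EPC-EVs it was 0.317 and 0.222, and Timp2 made up 64.1% and 66.8% of the inhibitor FPKM. The Timp3 share was 19.7% and 23.0% in control, 15.9% and 15.8% with dexamethasone, and 15.5% and 18.4% with EPC-EVs. The ratio of Mmp14 to Timp2 was 0.178 and 0.164 in control, 0.217 and 0.168 with dexamethasone, and 0.402 and 0.491 with EPC-EVs, with the first 2 groups overlapping.

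Of 19 further metalloproteinase and inhibitor genes, 13 were in the table and the others, Mmp1a, Mmp1b, Mmp7, Mmp8, Mmp21 and Mmp27, were not analysed here. Between dexamethasone and control edgeR called 0 of 6 tested, beside 1 with an unadjusted p under 0.05. DESeq2, with its own filter, and limma also called 0. With EPC-EVs against dexamethasone, edgeR tested 7 and called 1 higher and 2 lower, where 20.9% and 18.9% of all genes were called. Mmp16, a further membrane-type enzyme, had 312 and 325 CPM in control, 246 and 231 CPM with dexamethasone, and 81.3 and 97.0 CPM with EPC-EVs. Its log2 fold change was -1.47 ± 0.14 against dexamethasone (edgeR adjusted p = 1.81e-05) and -1.89 ± 0.19 against control (edgeR adjusted p = 0.000409). The membrane-type enzymes Mmp14 and Mmp16 thus went in opposite directions. Mmp19 fell by a log2 of 0.76 ± 0.17 against dexamethasone (edgeR adjusted p = 0.00453), a call lost without dexamethasone replicate 1 (log2 -0.59, edgeR adjusted p = 0.0810).

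Mmp28 was the only further enzyme called higher. It measured 23.9 and 19.9 CPM in control, 25.8 and 27.7 CPM with dexamethasone, and 43.2 and 58.9 CPM with EPC-EVs. Against dexamethasone the log2 fold change was 0.89 ± 0.22 (edgeR adjusted p = 0.00804). That call was lost without dexamethasone replicate 1 (0.85, edgeR adjusted p = 0.0667), dexamethasone replicate 2 (0.94, edgeR adjusted p = 0.0558) or EPC-EVs replicate 2 (0.67, edgeR adjusted p = 0.0617). The Mmp28 value was 0.20 with the GC and length trend taken out (edgeR adjusted p = 0.528). The remaining inhibitor, Timp4, had 6 and 26 counts in control, 0 and 8 with dexamethasone, and 0 in both EPC-EVs libraries. Mmp12, which lies among the chromosome 9 cluster genes, had a single count in the 6 libraries. The membrane-anchored inhibitor Reck was not called in any comparison.

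Of 12 genes that activate metalloproteinase precursors or act in the plasmin pathway, 11 were in the table and Plg was not analysed here. Against dexamethasone edgeR tested 10 and called 1 higher and 4 lower, beside 20.9% and 18.9% of all genes. Furin, the convertase that removes the propeptide of Mmp14, had 103 and 60.1 CPM in control, 135 and 117 CPM with dexamethasone, and 279 and 348 CPM with EPC-EVs. It rose by 1.27 ± 0.15 against dexamethasone (edgeR adjusted p = 6.65e-05). Serpine2 fell, at -1.61 ± 0.21 (edgeR adjusted p = 0.000110). Cd44, a cell surface anchor of Mmp9 and Mmp14, had a log2 fold change of -1.48 ± 0.14 (edgeR adjusted p = 1.36e-05). Bsg, an inducer of metalloproteinases, had -1.47 ± 0.12 (edgeR adjusted p = 5.80e-06). Against control, in comparisons that share the EPC-EVs libraries, Furin was at 1.89, Serpine2 at -1.59, Cd44 at -1.62 and Bsg at -1.10, and edgeR called all 4. With the GC and length trend taken out Furin was at 1.13 against control and Bsg at -2.19.

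Among 19 related ADAM and ADAMTS genes, 17 were in the table, and Adamts8 and Adamts15 were not analysed here. Against dexamethasone edgeR tested 15 and called 4 higher and 6 lower, beside the same shares of all genes, 20.9% and 18.9%. Adam8 fell most, with a log2 fold change of -4.19 ± 0.31 (edgeR adjusted p = 2.89e-06). The aggrecanase Adamts4 fell by 1.46 ± 0.20 (edgeR adjusted p = 0.000208). Adam12 rose by 1.41 ± 0.22 (edgeR adjusted p = 0.000493). Adamts7 fell by 1.49 ± 0.45 (edgeR adjusted p = 0.0203), and was at -2.24 with a replicate block and the GC and length trend taken out. The Adamts7 call was lost without dexamethasone replicate 1 (-1.66, edgeR adjusted p = 0.0630), dexamethasone replicate 2 (-1.26, edgeR adjusted p = 0.152) or EPC-EVs replicate 2 (-0.97, edgeR adjusted p = 0.123). The median log2 fold change of the ADAM and ADAMTS genes was -0.05, against -0.86 for the 8 members tested. The member median lies in a gap between Timp3 at -0.20 and Timp1 at -1.52. It does not stand for a fall of all members, of which 3 were called higher and 4 lower.

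The AP-1 and other transcription factors listed for control of metalloproteinase promoters were split in direction. All 13 were tested by edgeR. Between dexamethasone and control edgeR and limma called 0 and DESeq2 called 1, with 3 at an unadjusted p under 0.05 in edgeR. With EPC-EVs against dexamethasone, edgeR called 5 higher and 3 lower, where all genes gave 20.9% and 18.9%. Fos had 5.38 and 6.97 CPM in control, 7.57 and 10.0 CPM with dexamethasone, and 164 and 180 CPM with EPC-EVs. It rose by 4.25 ± 0.20 (edgeR adjusted p = 1.38e-07). Fosb rose by 3.67 ± 0.24 (edgeR adjusted p = 1.48e-06). Junb rose by 2.59 ± 0.16 (edgeR adjusted p = 8.35e-07), and by 1.44 with the GC and length trend taken out. Fosl1 went the other way, from 318 and 138 CPM in control and 258 and 204 CPM with dexamethasone to 39.4 and 29.0 CPM with EPC-EVs. Its log2 fold change was -2.80 ± 0.19 against dexamethasone (edgeR adjusted p = 1.59e-06). It was -3.60 with a replicate block and the GC and length trend taken out. Against control Fosl1 was at -2.78, or -2.02 without control replicate 1, and both were called by edgeR.

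Known glucocorticoid targets were read because dexamethasone is a glucocorticoid. Of 10 listed, edgeR tested 9 between dexamethasone and control and called 0, beside 2 with an unadjusted p under 0.05. DESeq2, with its own filter, and limma also called 0. Over all 12879 genes edgeR called 7 there, so a count of 0 does not set the targets apart from other genes. Fkbp5 was at 0.27 ± 0.32 (edgeR adjusted p = 0.789) and Tsc22d3 at -0.09 ± 0.30 (edgeR adjusted p = 0.945). With EPC-EVs against dexamethasone, edgeR called 4 higher and 2 lower, where all genes gave 20.9% and 18.9%. Tsc22d3 rose by 2.40 ± 0.39 (edgeR adjusted p = 0.00275), and by 1.70 without EPC-EVs replicate 2. Dusp1 rose by 2.21 ± 0.19 (edgeR adjusted p = 8.98e-06) and Fkbp5 by 0.73 ± 0.22 (edgeR adjusted p = 0.0225). Mt2 fell by 2.00 ± 0.23 (edgeR adjusted p = 6.16e-05) and Cdkn1a by 1.38 ± 0.18 (edgeR adjusted p = 0.000115).

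Promoter sequence was read for the 7 members with a RefSeq promoter entry, all but Mmp2 and Mmp9, from 250 bases before to 50 bases after the start, on both strands. The AP-1 word TGANTCA occurred in 3 of the 7, Mmp3, Mmp10 and Mmp13, against 7.81% of all 32851 promoters. The same 3 held the TATA word TATAAA, found in 13.6% of all promoters. The Sp1 word GGGCGG occurred in Mmp14, Timp1, Timp2 and Timp3, against 35.7% of all promoters. The ETS word GGAAGT occurred in Mmp3, Mmp13 and Timp1, against 23.8%, and the RUNX word TGTGGT in Mmp13 and Mmp14, against 16.8%. The glucocorticoid receptor word AGAACA occurred in Mmp10 alone, against 19.0%, and the cyclic AMP word TGACGTCA in none, against 1.79%. A match of this kind is a description of sequence and not a bound site. The 3 promoters with both AP-1 and TATA words belong to neighbours on chromosome 9, and the promoters of Mmp1a, Mmp1b, Mmp7, Mmp12 and Mmp20 hold the same pair of words. The 3 are printed as those of members with this pair, with AP-1 and TATA words in capitals, from RefSeq on the + strand of GRCm38.p6, and the AP-1 word begins at -35 in Mmp13, -46 in Mmp3 and -63 in Mmp10. Their coordinates are chr9:7272264-7272563 for Mmp13, chr9:7445572-7445871 for Mmp3 and chr9:7502092-7502391 for Mmp10.

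Mmp13: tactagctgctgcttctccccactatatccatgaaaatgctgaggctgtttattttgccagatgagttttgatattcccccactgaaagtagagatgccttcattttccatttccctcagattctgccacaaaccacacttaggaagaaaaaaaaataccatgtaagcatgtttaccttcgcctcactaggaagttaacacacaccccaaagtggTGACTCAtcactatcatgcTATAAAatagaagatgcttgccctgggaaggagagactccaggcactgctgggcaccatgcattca

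Mmp3: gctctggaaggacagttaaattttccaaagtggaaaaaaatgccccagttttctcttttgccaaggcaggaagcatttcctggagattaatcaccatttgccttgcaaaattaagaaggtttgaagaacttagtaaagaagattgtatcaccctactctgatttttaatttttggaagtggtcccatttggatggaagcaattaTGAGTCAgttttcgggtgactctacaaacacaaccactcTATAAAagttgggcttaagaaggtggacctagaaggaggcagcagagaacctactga

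Mmp10: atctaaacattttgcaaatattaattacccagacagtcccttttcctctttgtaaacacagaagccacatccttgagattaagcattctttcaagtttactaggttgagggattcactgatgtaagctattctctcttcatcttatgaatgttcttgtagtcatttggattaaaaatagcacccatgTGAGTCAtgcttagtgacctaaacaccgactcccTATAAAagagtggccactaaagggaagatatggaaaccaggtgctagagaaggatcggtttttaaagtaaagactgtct

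Other genes in the table had nearly the same course over the 6 libraries as single members. Likeness was measured as the root mean square difference of centred log2 CPM, over the 9222 genes that averaged 10 CPM or more. It was searched over the same libraries that gave the fold changes and so describes course, not shared control. Closest to Mmp2 were Atp6v0d1 at 0.0625, Crebzf at 0.0647 and Dbi at 0.0722. Tnrc18 at 0.0542 and Dyrk1b at 0.0820 were among the closest to Mmp14. For Timp2 these were Tnrc6c at 0.0490, Notch2 at 0.0537 and Eml1 at 0.0545. Timp3 was matched by Zfp644 at 0.0375, Sars at 0.0398 and Slc38a6 at 0.0409. Mmp9 was followed by Styx at 0.115, Nr1d1 at 0.129 and Mettl14 at 0.131. The nearest course to Timp1 was that of Il18rap at 0.114, with the aggrecanase Adamts4 at 0.117 and P4ha2 at 0.119 next. Mmp13, whose level varied most of the members searched, was nearest to Zfp938 at 0.286, Hbegf at 0.299 and Ccdc34 at 0.321. Mmp3 and Mmp10 were below the level searched.

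Marker genes were read for the labelled cell type and for cells that make metalloproteinases in bone. The 10 osteoblast markers summed to 16073 and 17623 CPM in control, 17337 and 17803 CPM with dexamethasone, and 29366 and 23413 CPM with EPC-EVs. Spp1 was the most abundant in the first 4 libraries and Col1a2 in the EPC-EVs libraries. Runx2 had 904 to 2392 counts in every library, whereas the maturation marker Alpl had 11 and 16 counts in control, 5 and 0 with dexamethasone, and 17 and 6 with EPC-EVs. Bglap had 9 and 14 counts, then 11 and 0, then 83 and 8. Against dexamethasone edgeR called 3 osteoblast markers higher and 1 lower of 8 tested, where all genes gave 20.9% and 18.9%. Col1a2 rose by 1.89 ± 0.12 (edgeR adjusted p = 1.42e-06) and Sparc by 1.25 ± 0.11 (edgeR adjusted p = 8.98e-06). Col1a1 rose by 1.51 ± 0.14 (edgeR adjusted p = 1.16e-05), and by 0.76 with the GC and length trend taken out. Spp1 fell by 1.06 ± 0.14 (edgeR adjusted p = 0.000155), and was at -0.50 with that trend taken out. Dmp1 had 333 and 348 CPM with dexamethasone and 138 and 26.1 CPM with EPC-EVs, a wide spread that edgeR did not call (-2.10 ± 1.05, adjusted p = 0.258). The collagen transcripts and the gelatinase Mmp2 therefore rose in the same libraries in which the collagenase Mmp13 was lowest.

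Markers of other cells were read in the same way. Of 8 endothelial markers 6 were in the table, with Kdr and Tie1 not analysed here, and their sums were 416 and 379 CPM, then 361 and 373 CPM, then 290.3 and 243 CPM. Cd34 made up nearly all of these sums, and Cdh5 had at most 1 count in any library. Cd34 fell by 0.51 ± 0.13 against dexamethasone (edgeR adjusted p = 0.00962), a call lost without dexamethasone replicate 1 (-0.51, edgeR adjusted p = 0.0859) or dexamethasone replicate 2 (-0.49, edgeR adjusted p = 0.106). The difference of Cd34 nearly vanished, at -0.072, with the GC and length trend taken out (edgeR adjusted p = 0.719). Pecam1 had 5 and 2 counts in control, 7 and 0 with dexamethasone, and 1 and 21 with EPC-EVs, and Emcn had 6 counts in EPC-EVs replicate 2 alone. A small share of RNA from endothelial progenitors could not be seen from the Cd34 level. Of 7 macrophage markers 4 were in the table, without Ptprc, Fcgr1 and Itgam, which were not analysed here. They summed to 12.1 and 11.7 CPM in control, 17.2 and 18.4 CPM with dexamethasone, and 19.0 and 54.2 CPM with EPC-EVs. The last value came mostly from Csf1r, with 12 and 0 counts in control, 20 and 8 with dexamethasone, and 56 and 471 with EPC-EVs. Against dexamethasone edgeR called 0 macrophage markers of 3 tested, 1 with an unadjusted p under 0.05. DESeq2, with its own filter, and limma also called 0. Csf1r was called against control (4.25 ± 1.22, edgeR adjusted p = 0.0259), a call lost without EPC-EVs replicate 2. Against dexamethasone Csf1r was at 3.28 ± 1.09, not called (edgeR adjusted p = 0.0580). Of 7 osteoclast markers 4 were in the table, and Acp5, Calcr and Dcstamp were not analysed here. Their sum was 45.6 and 35.0 CPM, then 26.5 and 40.0 CPM, then 54.0 and 46.5 CPM, mostly Ctsk, with control and dexamethasone overlapping and the EPC-EVs libraries just above them. Ctsk was called higher against dexamethasone (0.63 ± 0.23, edgeR adjusted p = 0.0471), a call lost without dexamethasone replicate 1 (0.40, edgeR adjusted p = 0.251), without EPC-EVs replicate 1 (0.53, edgeR adjusted p = 0.146) and by both DESeq2 and limma, and also with RLE factors, upper quartile scaling, all 6 libraries in one fit, thinned libraries or the GC and length trend taken out. The other osteoclast markers, Atp6v0d2, Ocstamp and Oscar, had 0 to 17 counts without EPC-EVs and 0 with them.

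Against control, the libraries given EPC-EVs gave similar counts over these gene lists, from the same EPC-EVs libraries, where 19.1% of all genes were higher and 17.2% lower. Of the further metalloproteinase and inhibitor genes edgeR called 1 higher and 2 lower of 6 tested, and DESeq2 1 higher and 3 lower, and of the activation and plasmin genes 1 higher and 4 lower of 10. Among the ADAM and ADAMTS genes 3 were higher and 5 lower of 15. Adam8 was at -3.44 ± 0.48 (edgeR adjusted p = 0.00132) and Adamts5 at -1.60 ± 0.26 (edgeR adjusted p = 0.00255). Adam15 was at 1.38 ± 0.21 (edgeR adjusted p = 0.00185) and Adam12 at 1.32 ± 0.31 (edgeR adjusted p = 0.0119). Of the transcription factors 5 were higher and 4 lower of 13, with Fos at 4.76 ± 0.26 (edgeR adjusted p = 7.07e-05) and Fosb at 4.91 ± 0.37 (edgeR adjusted p = 0.000167). DESeq2 called 3 transcription factors lower and limma 2. Glucocorticoid targets gave 3 higher and 2 lower of 9. Tsc22d3 was at 2.31 ± 0.39 (edgeR adjusted p = 0.00286), at 2.09 and not called without control replicate 2 (edgeR adjusted p = 0.0515), and at 1.60 without EPC-EVs replicate 2. Of the osteoblast markers 3 were higher and 1 lower of 10, with Col1a2 at 2.05 ± 0.21 (edgeR adjusted p = 0.000410) and Spp1 at -1.09 ± 0.22 (edgeR adjusted p = 0.00575). Spp1 was at -0.41 and not called with the GC and length trend taken out (edgeR adjusted p = 0.144). Endothelial markers gave 1 lower of 2 tested, which limma did not call, macrophage markers 1 higher of 3, which DESeq2 did not call, and osteoclast markers 0 of 1 by edgeR, with 0 at an unadjusted p under 0.05. For the osteoclast markers limma called 0 as well, and DESeq2, with its own filter, called 1 lower. Between dexamethasone and control edgeR and limma called 0 genes on every list, and DESeq2 called 1 lower among the activation and plasmin genes, 1 among the ADAM and ADAMTS genes and 1 among the transcription factors. In edgeR 3 activation and plasmin genes, 4 ADAM and ADAMTS genes, 2 osteoblast markers and 0 markers of other cells had an unadjusted p under 0.05 there.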

How the data were processed

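The authors removed low-quality reads and those with adapters or poly-N, and aligned the rest with HISAT2. They made the deposited counts per gene with HTSeq 0.6.1, 1 library at a time. The strand setting of the counting step is not given in the sources used here. The deposited FPKM follow those counts divided by gene length and by library total, whereas the paper describes a sum of transcript FPKM for each gene. Differential expression was tested by the authors with a DESeq package (1.26.0), and their results were not used here. The deposited transcript FPKM table was not used here.

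Each comparison was refitted from the counts of its 4 libraries in R 4.3.3 with edgeR 4.0.16 (TMM, filterByExpr, robust quasi-likelihood fit), with adjustment over all genes tested. A step tested on simulated data preceded the fits. Alternatives were DESeq2 1.42.0, limma 3.58.1 on log2(FPKM + 1), RLE and upper quartile scaling, mitochondrially encoded genes left out, no filter or a mean of at least 1 CPM, all 6 libraries in one fit, libraries thinned to the smallest, a replicate block, removal of a loess trend (span 0.4) over GC content and transcript length, the threshold of the study (log2 fold changes beyond 1.5 with an unadjusted p under 0.05), and leaving out each library in turn. A lone library was then assumed to vary like the other group.

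Besides the members, the text names called genes with the largest log2 fold change on each gene list, up to 4 per list and comparison. The lists were further metalloproteinase and inhibitor genes, activation and plasmin genes, ADAM and ADAMTS genes, transcription factors, glucocorticoid targets, and markers of osteoblasts, endothelial cells, macrophages and osteoclasts. Runx2 was on 2 of them. It also names the 3 genes nearest in course to each member above 10 CPM, from log2 CPM with a prior count of 2, of which 1 is not reported here. Mmp12, Timp4, Reck, Alpl, Bglap, Dmp1, Runx2, Cdh5, Pecam1, Emcn, Atp6v0d2, Ocstamp and Oscar were named after their values were seen. The members and lists were chosen with earlier results of these data known. Gene coordinates came from GENCODE vM21 on GRCm38 and promoters from RefSeq. No protein sequence was read.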

Additional observations from a re-analysis of the deposited data

How the results depend on the processing

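Between dexamethasone and control 7 genes were called. The count was 129 with DESeq2, 0 with limma on log2(FPKM + 1), 1 with mitochondrially encoded genes left out, 248 with no filter, 11 with a mean of at least 1 CPM, 18 with the GC and length trend removed, 182 at the threshold of the study, and 9 to 2200 with 1 library left out. Members called numbered 1 in place of 0 with DESeq2 and with no filter, and 0 to 4 with 1 library left out. With EPC-EVs against dexamethasone the threshold of the study gave 1922 genes in place of 5397, and leaving out 1 library gave 3250 to 4813. Against control that threshold gave 2793 in place of 4916.

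The replicate numbers are only numbers in the labels, and same-numbered libraries deviated together with correlations of 0.05, 0.01 and 0.02. With a replicate block, 43 genes and 1 member were called between dexamethasone and control, and 379 genes and 1 member with the GC and length trend removed as well. The member was Mmp13 in both, at -0.98 (edgeR adjusted p = 0.0403) and -0.82 (edgeR adjusted p = 0.000182). With EPC-EVs against dexamethasone the block gave 6 members in place of 7, Mmp13 not being called (-2.14, adjusted p = 0.130). The threshold of the study gave 5 members in place of 7 in both comparisons with EPC-EVs.

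With the GC and length trend removed, and with that removal joined to the replicate block, directions turned for Mmp9 between dexamethasone and control (-0.15 and -0.10), for Timp1 (-0.030 and -0.029) and for Timp2 (-0.13 and -0.13). Timp2 also turned with EPC-EVs against dexamethasone (-0.041 and -0.039) and against control (-0.19 and -0.19). With 1 library left out Mmp9 ran from -0.076 to 0.59 between dexamethasone and control. The cause was not tested.

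Over all alternatives but the threshold of the study, 111 of 128 fold changes of members kept direction and side of the threshold between dexamethasone and control, 117 of 128 with EPC-EVs against dexamethasone, and 124 of 138 against control. The list genes named kept both in 378 of 400 values against dexamethasone and 371 of 400 against control, and none reversed.

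Each group held 2 libraries of 1 subclone, and the EPC-EVs libraries differed from the rest in depth and mitochondrial share. No library carried vesicles without dexamethasone, so their effect alone was not measured. Transcript levels do not give enzyme activity, secretion or activation of precursors. Mmp10 and Mmp3 with EPC-EVs were limited by counting.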
